A study of Mus musculus with 4 samples.

Results

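Respiratory complex I, the NADH dehydrogenase of the inner mitochondrial membrane, was followed through the transcripts of 36 nuclear genes that encode its subunits. The members were taken by symbol from a list of nuclear-encoded subunits, by a rule that used no measured value, though the list was drawn up with earlier results of these data known, and 36 of 36 were found among the 24940 rows of the deposited table. All 36 passed the filter on low values (a mean of at least 1 unit), as did 13531 genes in all. The samples were pancreatic islets of male mice aged 3 to 4 months on a low-fat chow diet. The 2 control libraries (replicates 1 and 2) came from non-transgenic mice and the 2 others (replicates 3 and 4) from Tafazzin-knockdown mice, with about 300 islets from 2 to 3 mice pooled for each library. The control animals lacked the transgene altogether, so that depletion of Tafazzin and presence of the transgene cannot be told apart. Tafazzin is the transacylase that matures cardiolipin, and the series title concerns insulin secretion and mitochondrial function in its absence.

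Complex I takes electrons from NADH, passes them through a flavin and a chain of iron-sulfur clusters to ubiquinone, and couples this to proton pumping. Its matrix arm holds the redox centres and its membrane arm the proton channels. Core subunits carry out catalysis, and accessory subunits surround them and are needed for assembly and stability. Complex I joins complexes III and IV in supercomplexes, and cardiolipin binds to its membrane arm. In beta cells, NADH oxidation feeds the ATP rise that triggers insulin release. The membrane core subunits encoded by mitochondrial DNA were not analysed here.

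The transcript level of complex I subunits in the knockdown islets differed from that in control islets by less than the test could call. By limma 0 of 36 members were called higher and 0 lower at an adjusted p under 0.05, where 1.12% of all tested genes were called higher and 0.155% lower. The edgeR test called 0 and 0, against 1.24% and 0.133% of all tested genes. DESeq2 called 0 members, against 83 genes higher and 11 lower among all 13531 tested. An unadjusted p under 0.05 was reached by 1 member in limma, 1 in edgeR and 0 in DESeq2. Over all tested genes, limma gave such a p to 6.37% in the higher direction and 3.90% in the lower. In edgeR 1363 of the 13531 genes had one. The median log2 fold change (knockdown against control) of the members was -0.03, beside -0.00 over all 13531 tested genes, and 16 members lay above 0 and 20 below. The members' changes ranged from -0.31 for Ndufb5 to 0.50 for Ndufb2. Their SD was 0.168, beside 0.348 over all tested genes and 0.349 over the 9210 tested genes whose mean lay in the range of the members. Ndufb4, far below most members, sets the low end of that range, so these genes are not matched to the members on level.

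Values are printed as scaled units. A deposited unit is 1 read per 10000000 reads of the library, and each library was divided by a median-ratio factor (1.04 and 0.847 for control replicates 1 and 2, 1.08 and 1.06 for knockdown replicates 3 and 4). A fold change is on the log2(value + 1) scale and understates changes of genes at low values. The libraries held 68823162 to 81073513 reads, of which the members took 5639 to 6705 in each, with 14 to 378 reads for a single member. Taz, the gene of Tafazzin, stood at 22.3 and 18.2 scaled units in control islets, against 12.9 and 12.0 in knockdown islets. Both knockdown libraries lay below both controls for Taz, as their labels have it, and the change was not called (log2 fold change -0.65 ± 0.20 SE, limma adjusted p = 0.136). Knockdown replicate 3 lay farthest out, at 31.3 along the axis of largest variance (52.4% of the total), with knockdown replicate 4 at 6.99 and the controls at -27.1 and -11.2. Without knockdown replicate 3 the members' median was -0.06. That fit leaves 1 knockdown library, which is assumed to vary like the controls.

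Markers of several cell types differed between the groups. Beta cell markers (Mafa, Slc30a8 and others) had a median log2 fold change of -0.30, with 0 of 10 tested markers called higher and 1 lower, Mafa (limma adjusted p = 0.0198, edgeR 0.0553). Of these markers 10 of 10 lay below 0, and 6 had an unadjusted limma p under 0.05. The summed level of the 10 markers was 95744 and 92666 scaled units in control islets, against 77763 and 85905 in knockdown islets. Ins2 and Ins1 made up most of this sum, with Ins2 at 56310 and 54413 against 44813 and 49187 scaled units. Stellate cell and fibroblast markers had a median of 1.37 with 7 of 10 called higher (Fbln2 and Col1a1 had the largest statistics), and summed to 102 and 135 scaled units in the controls against 342 and 262. For endothelial markers the median was 0.68, with 4 of 10 called higher (Plvap and Eng first), and the sums were 175 and 181 against 332 and 256. In duct markers 2 of 9 were called higher, Anxa3 and Spp1 with a list median of 0.40 (sums of 845 and 1099 against 1601 and 1076). Of 8 acinar markers 0 were called, with a median of -0.41 and 8 of 8 below 0 (2619 and 6589 against 4491 and 2098), and 2 had an unadjusted limma p under 0.05. Of 9 tested macrophage markers 1 was called higher, Lyz2, and of 7 markers of other islet cells 0 were called, with list medians of -0.08 and -0.20. Among the other islet markers 3 had an unadjusted limma p under 0.05. Amy2a5 and Cftr were at 0 in at least 1 library. The 36 members summed to 812 and 821 scaled units in control replicates 1 and 2 and to 813 and 786 in knockdown replicates 3 and 4. In bulk islets, a change in the share of beta cells and a change in RNA per beta cell cannot be told apart, and the part of cell makeup in the members' values was not tested.

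**Figure D1:**
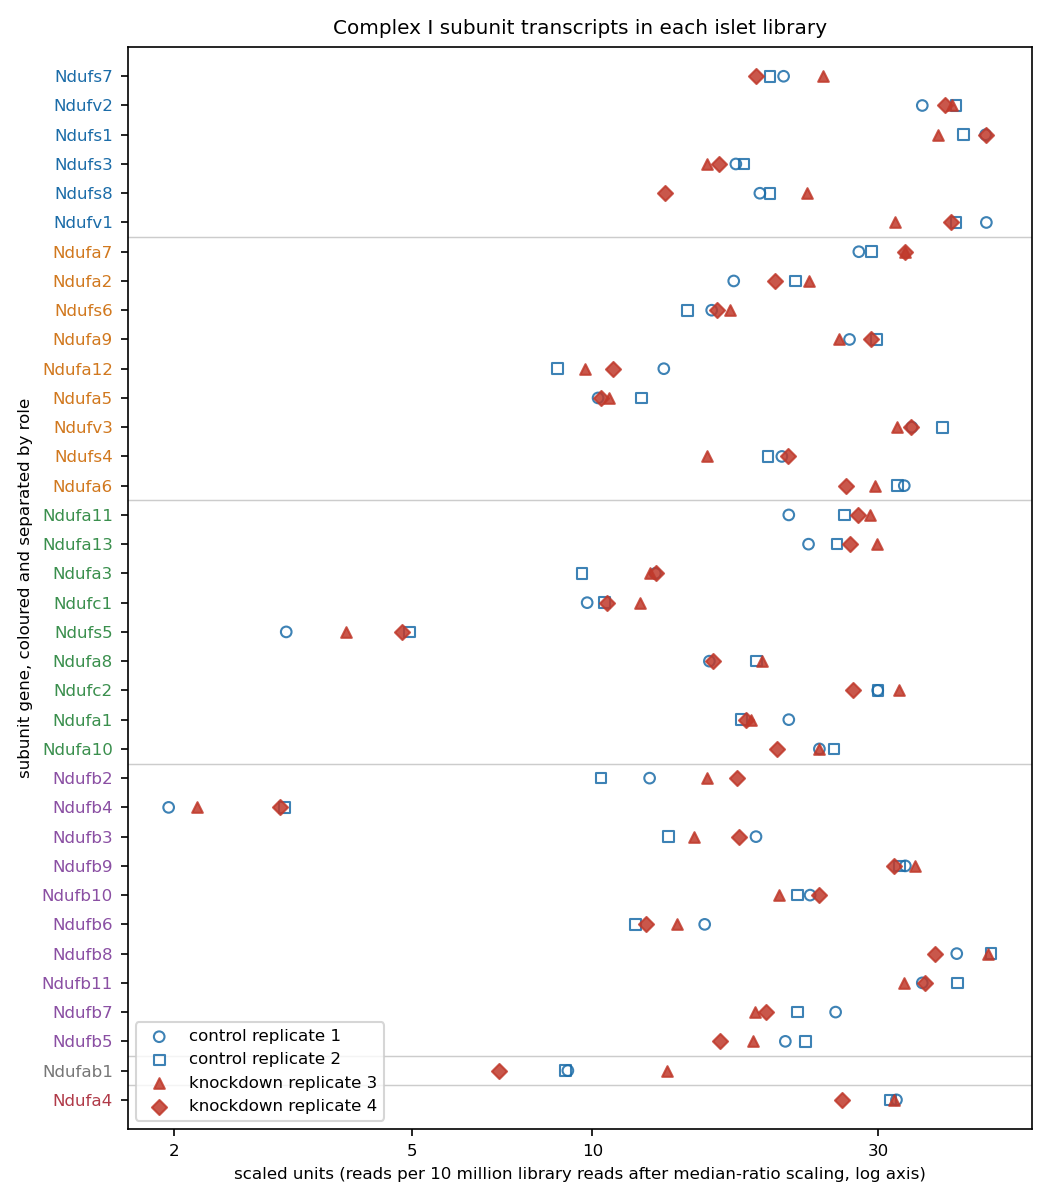
Scaled units of each complex I subunit gene (rows, grouped by role) in the 4 islet libraries on a log axis, with open blue symbols for the 2 controls and filled red symbols for the 2 knockdown libraries. Open and filled symbols are mixed in 23 of the 36 rows, and Ndufb4 and Ndufs5 lie lowest.

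Promoter sequence was compared because nuclear respiratory factor 1 (NRF1) is a known activator of respiratory chain genes. The RefSeq promoter table (GRCm38.p6) held 33 of the 36 members (not Ndufs1, Ndufa2 or Ndufb9), and the 250 bases before each start were searched on both strands. The full NRF1 palindrome, in capitals in the Ndufa11 window, was found in 1 member and in 0.877% of the 27025 genes of the table. A wider form with any base at the fifth position of the palindrome, tried after it, including it and read on either strand, was found in 6 of 33 members (18.2%) and in 4.23% of all genes. These windows show where the matching letters lie, in capitals, with up to 15 bases on each side, 5′ to 3′ on the strand of the gene and not past its start. Ndufa8 and Ndufs6 match as printed, Ndufa5, Ndufb4 and Ndufs5 on the opposite strand, where the free base falls at the sixth position as printed, and Ndufa11 on both. They lie at chr17:56717687-56717726 (plus strand, Ndufa11), chr6:24527692-24527731 (minus strand, Ndufa5), chr2:36049344-36049383 (minus strand, Ndufa8), chr16:37654535-37654574 (minus strand, Ndufb4), chr4:123718260-123718299 (minus strand, Ndufs5) and chr13:73328483-73328513 (minus strand, Ndufs6).
Ndufa11: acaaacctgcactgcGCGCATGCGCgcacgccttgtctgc
Ndufa5: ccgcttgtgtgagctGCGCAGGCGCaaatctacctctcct
Ndufa8: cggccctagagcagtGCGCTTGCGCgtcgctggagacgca
Ndufb4: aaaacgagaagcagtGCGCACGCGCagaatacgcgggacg
Ndufs5: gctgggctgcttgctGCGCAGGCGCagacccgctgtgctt
Ndufs6: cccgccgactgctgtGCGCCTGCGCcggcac

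The log2 fold changes of the members with these letters ran from -0.07 to 0.25 (median 0.08, 6 genes), within the range of -0.31 to 0.50 of the 27 members without them (median -0.06). The other motifs searched were the ETS site CCGGAAG of GABP, found in 3 of 33 members and 7.83% of all genes, and the YY1 site AANATGGCG, found in 2 members and 1.29%. The estrogen-related receptor site AAGGTCA was found in 3 members and 4.70% of genes, the cAMP response element TGACGTCA in 3 and 1.77%, and the CCAAT box in 10 and 37.5%. Ndufb2, the member with the largest change, held the receptor site, the cAMP response element and a CCAAT box. The receptor site was also found in Ndufb4 and Ndufs5, at changes of 0.04 and 0.11. The cAMP response element was also found in Ndufa10 and Ndufa11, at -0.15 and 0.25. A match is a description of letters and not evidence of binding in islets.

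The core subunits of the matrix arm, which hold the flavin and the iron-sulfur clusters, had a median log2 fold change of -0.10 with 0 of 6 called. Ndufv1 carries the flavin that accepts electrons from NADH (mm10 chromosome 19, 4007499 to 4012755, minus strand). It stood at 45.5 and 40.5 scaled units in control replicates 1 and 2 and at 32.0 and 39.7 in knockdown replicates 3 and 4. Both knockdown libraries lay below both controls, by a narrow margin for replicate 4. The log2 fold change was -0.26 ± 0.16 SE, with a 95% interval from -0.58 to 0.06 (limma adjusted p = 0.618), so that the difference was within the spread. Relative to all genes it was -0.11 without knockdown replicate 3 and -0.41 without replicate 4. Its partner Ndufv2, an iron-sulfur protein, stood at 35.6 and 40.5 scaled units in control islets, against 39.9 and 38.7 in knockdown islets. The groups overlapped, and the change was 0.05 with an interval from -0.26 to 0.36. Ndufs1 is the largest iron-sulfur subunit and passes electrons on from the flavin. It was read at 45.4 and 41.6 against 37.7 and 45.5 scaled units, with overlap (-0.07, interval -0.38 to 0.24).

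Closer to ubiquinone, Ndufs7 carries the last iron-sulfur cluster of the chain, and Ndufs8 the pair of clusters before it. Ndufs7 stood at 20.9 and 19.8 scaled units in control islets, against 24.3 and 18.8 in knockdown islets (0.07, interval -0.31 to 0.45). Ndufs8 stood at 19.0 and 19.8 against 22.8 and 13.2 scaled units. Here the 2 knockdown libraries lay on either side of the controls, and the sign of the change (-0.15, interval -0.59 to 0.29) depended on which of them was used. Ndufs3, a scaffold of the ubiquinone-binding module, was read at 17.4 and 17.9 against 15.5 and 16.2 scaled units. Its groups did not overlap, yet the log2 fold change of -0.14 was smaller than the limma SE of 0.19 (limma adjusted p = 0.876). That SE is drawn largely from other genes of similar level. The replicates of Ndufs3 within each group lay closer together than the groups did. Summed over the core subunits, the level was 184 and 180 scaled units in control islets, against 172 and 172 in knockdown islets.

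Accessory subunits of the matrix arm had a median of -0.06 with 0 of 9 called, and their summed level was 199 and 207 against 197 and 202 scaled units. Ndufa7 showed the largest positive change among them. It stood at 27.9 and 29.3 scaled units in control islets, against 33.2 in both knockdown libraries, and the groups did not overlap. The log2 fold change was 0.21 ± 0.16 SE (interval -0.11 to 0.54, limma adjusted p = 0.706). Ndufa6, a LYR-motif subunit that anchors an acyl carrier protein, lay on the other side. Its 33.2 and 32.3 scaled units in the controls compared with 29.6 and 26.5 in the knockdown libraries (-0.22 ± 0.16 SE, limma adjusted p = 0.695). Ndufs4, whose loss causes a Leigh-like encephalopathy in mice, stood at 20.7 and 19.7 against 15.5 and 21.2 scaled units, with overlap. Ndufv3, a short subunit of the flavoprotein part, stood at 34.2 and 38.4 against 32.3 and 34.0 scaled units (-0.13, interval -0.44 to 0.19). The zinc-binding Ndufs6 went from a mean of 15.1 to 16.5 scaled units without overlap and without a call (0.12, interval -0.28 to 0.53). Ndufa12, the lowest here by mean level, stood at 13.2 and 8.73 against 9.70 and 10.8 scaled units. Ndufa2, Ndufa5, Ndufa9 and Ndufa12 overlapped between the groups, with changes from -0.07 for Ndufa5 to 0.15 for Ndufa2.

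In the proximal membrane arm, next to the matrix arm, accessory subunits had a median of 0.11 with 0 of 9 called. Ndufa11, a membrane subunit at the contact with complex III in supercomplexes, stood at 21.3 and 26.3 scaled units in control islets, against 29.1 and 27.8 in knockdown islets. Both knockdown libraries lay above both controls. The log2 fold change was 0.25 ± 0.17 SE (interval -0.10 to 0.61, limma adjusted p = 0.671). Relative to all genes it was 0.11 without control replicate 1 and 0.41 without control replicate 2. Ndufa13, also known as GRIM-19, was read at 23.0 and 25.6 against 29.8 and 27.0 scaled units, again without overlap (0.22 ± 0.17 SE, limma adjusted p = 0.725). Ndufc1 was the third member here whose knockdown libraries both lay above the controls, at means of 10.1 and 11.3 scaled units. Ndufa10, a subunit with a nucleoside kinase fold, lay lower in both knockdown libraries, by a margin under 0.1 scaled units for replicate 3 (means of 24.6 and 22.1). Ndufc2, the highest here by mean level, stood at 29.954 and 29.985 against 32.5 and 27.2 scaled units. Ndufa1, Ndufa3, Ndufa8, Ndufc2 and Ndufs5 overlapped, with changes from -0.09 for Ndufa1 to 0.17 for Ndufa3. The summed level of the 9 genes was 161 and 169 scaled units in control islets, against 181 and 164 in knockdown islets.

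The distal membrane arm, the Ndufb subunits at its far end, held both extremes of the whole set. Its median log2 fold change was -0.03 with 0 of 10 called. Ndufb2 (NM_026612, mm10 chromosome 6, 39592565 to 39599843, plus strand) stood at 12.5 and 10.3 scaled units in the controls. In the knockdown libraries it stood at 15.5 and 17.4, above both controls. The ratio of the means was 1.45 and the log2 fold change 0.50 ± 0.21 SE, with an interval from 0.07 to 0.93. The unadjusted limma p was 0.0248 and the limma adjusted p 0.364, so that Ndufb2 did not pass the test over all genes. It was the only member with an unadjusted limma p under 0.05, 1 of 36, where 6.37% of all tested genes reached this in the higher direction and 3.90% in the lower. Of the 50-base stretches of the Ndufb2 transcript, 33.5% also occur in the transcript of another annotated gene, and reads from there may be shared.

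Ndufb5 and Ndufb7 stood at the other end. Ndufb5 was read at 21.0 and 22.7 scaled units in control islets, against 18.6 and 16.4 in knockdown islets, a ratio of means of 0.799. The log2 fold change was -0.31 ± 0.18 SE, and its interval from -0.69 to 0.07 held 0 (limma adjusted p = 0.612). Ndufb7, a twin-cysteine subunit on the intermembrane side, stood at 25.5 and 22.0 against 18.7 and 19.5 scaled units (-0.30 ± 0.18 SE, limma adjusted p = 0.622). In both genes the groups did not overlap. Ndufb9, a second LYR-motif subunit, was nearly level at 33.3 and 32.6 against 34.6 and 31.9 scaled units (0.01, interval -0.31 to 0.33). Ndufb8, which is widely used as a protein marker of assembled complex I, stood at 40.6 and 46.3 against 45.8 and 37.3 scaled units, with overlap (-0.07, interval -0.38 to 0.25). Ndufb3, Ndufb4, Ndufb6, Ndufb10 and Ndufb11 overlapped as well, with changes from -0.14 for Ndufb11 to 0.04 for Ndufb4.

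Ndufab1 and Ndufa4 differ from the other members in where their proteins work. Ndufab1 is the mitochondrial acyl carrier protein, which serves fatty acid synthesis and iron-sulfur cluster assembly as well as both arms of complex I. It stood at 9.10 and 9.02 scaled units in control islets, against 13.3 and 6.98 in knockdown islets, which lay on either side of the controls. Ndufa4, named as a complex I subunit, is now assigned to complex IV. It stood at 32.2 and 31.4 against 31.9 and 26.1 scaled units (-0.14, interval -0.47 to 0.20). Leaving Ndufa4 out gave a median of -0.02 for the other 35 members after the median of all genes was subtracted.

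**Figure D2:**
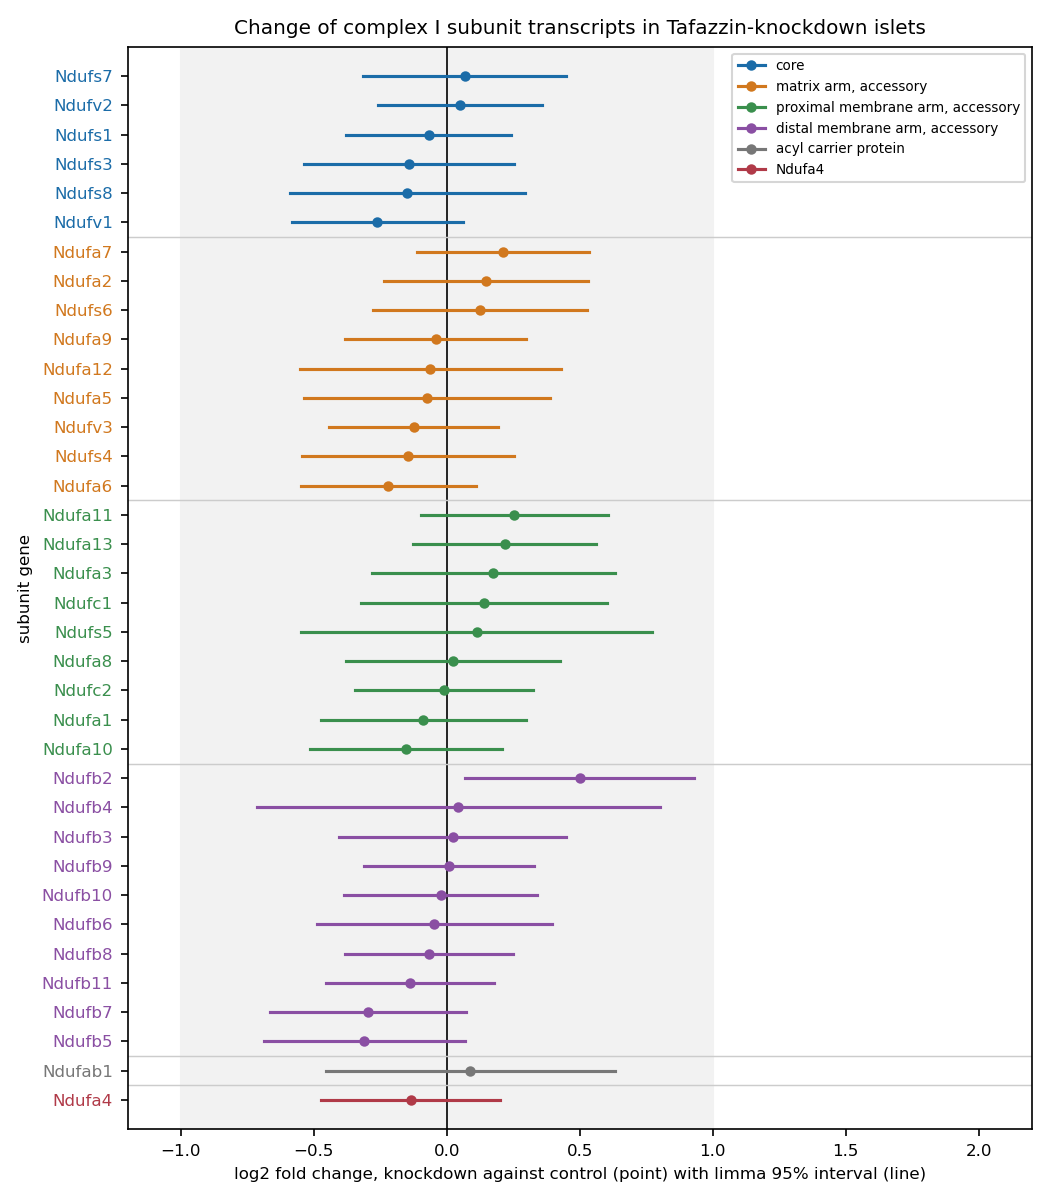
Log2 fold change (knockdown against control) of each complex I subunit gene with its limma 95% interval, grouped by role. The grey band marks changes of less than 2-fold (-1 to 1), which holds all 36 intervals, and only the interval of Ndufb2 lies apart from 0.

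The size of change that these data leave possible differed by gene. On the log2(value + 1) scale all 36 intervals lay within -1 and 1, where the same held for 10917 of the 13531 tested genes. Within -0.5 and 0.5 lay the intervals of 15 members. Ndufb4 and Ndufs5 had the widest intervals, and their values are close enough to the added 1 that this scale compresses their change. In 13 members the groups did not overlap, 6 with the knockdown libraries higher (16.7%, beside 20.4% of all tested genes) and 7 with them lower (19.4%, beside 20.0%). These shares are near the background and say nothing about the subunits. Replicates of one group differed by a median of 0.16 (controls) and 0.17 (knockdown) in log2 units, and the group means by 0.12. A mean over libraries varies less than a single library, so the 0.12 cannot be read as smaller than the replicate spread.

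Levels per transcript length spread widely among the members. Lengths were those of the longest GENCODE transcript matched to the transcript named in the table, and the order rests on that choice. Relative to these lengths, Ndufv3 was highest at 73.6 scaled units per kb in the controls. Ndufa6 at 55.5, Ndufa7 at 54.1 and Ndufa4 at 52.2 followed. Among core subunits Ndufv2 was highest at 41.0 and Ndufs1 lowest at 16.3 scaled units per kb. In the proximal membrane arm Ndufa1 led at 46.6, and in the distal arm Ndufb9 at 46.8. The lowest were Ndufb4 at 2.58, Ndufab1 at 2.60 and Ndufs5 at 7.65 scaled units per kb. Ndufb4 was read at 1.96 and 3.06 scaled units in control islets, against 2.18 and 3.01 in knockdown islets, and Ndufs5 at 3.08 and 4.95 against 3.88 and 4.81. For both, a large share of the transcript (37.0% and 41.2% of its 50-base stretches) also occurs in other annotated genes. This was over 30% too for Ndufa12 (53.8%), Ndufs3 (39.7%), Ndufb6 (34.1%) and Ndufb2, and 0 for 16 members. How the deposited counts treated reads that match several places is not given in the sources used here, so the levels of these 6 genes are uncertain. The length given in the table is the genomic span, and reads from introns may be included: Ndufs4 spans 100299 bases with a transcript of 1698.

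The rows of 7 members overlap the row of another gene, and reads in the shared bases may count for both. For Ndufs1 the shared stretch is 14703 bases with Ino80dos, and Ndufs7 lies whole inside a row of 672332 bases named Bc1. Ndufa1, Ndufa2, Ndufa10, Ndufa13 and Ndufb11 share 16 to 374 bases with a neighbour. Without these 7 members the median change of the other 29 relative to all genes was -0.02.

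**Figure D3:**
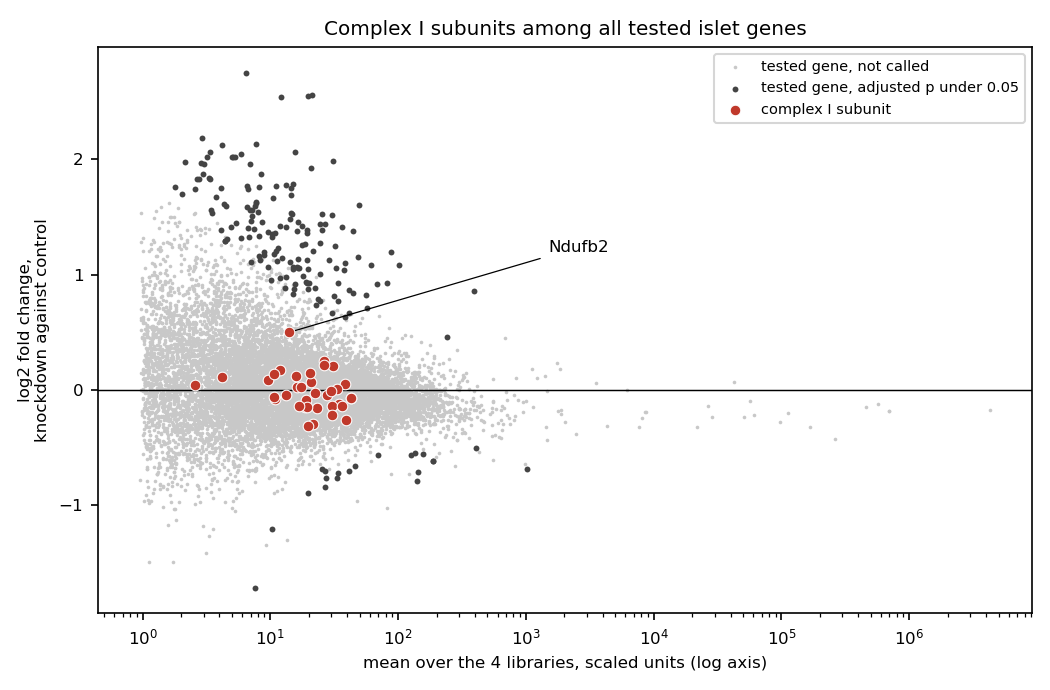
Log2 fold change (vertical axis) against mean level in scaled units (log axis) for all 13531 tested genes, with called genes in dark grey and complex I subunits in red. The subunits lie in the bulk of genes at their level, and Ndufb2 at 0.50 is the highest of them.

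Genes that build or surround complex I were compared from lists that were drawn up with earlier results of these data known. Of 18 tested assembly factors 0 were called by limma or edgeR, with a median log2 fold change of 0.02, and 1 had an unadjusted limma p under 0.05. Tmem70, which assists the assembly of ATP synthase and complex I, had the largest statistic. It stood at 18.8 and 15.1 scaled units in control islets, against 8.73 and 9.86 in knockdown islets, with no overlap. The log2 fold change was -0.80 ± 0.22 SE, and the adjusted p was 0.0717 by limma and 0.0791 by edgeR, short of the threshold. Ndufaf5, which modifies the core subunit Ndufs7 during assembly, stood at 4.48 and 4.08 against 7.03 and 5.53 scaled units (0.46 ± 0.29 SE, limma adjusted p = 0.644). Of 3 supercomplex factors 0 were called, and 0 had an unadjusted limma p under 0.05. Cox7a2l, which links complexes III and IV, stood at 62.1 and 62.6 against 48.7 and 54.5 scaled units, without overlap (-0.27 ± 0.14 SE, limma adjusted p = 0.511). Higd2a, a second such factor, stood at 16.4 and 16.4 against 14.3 and 12.9 scaled units (limma adjusted p = 0.726).

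Subunits of complexes II to V and mitochondrial ribosomal proteins gave medians close to that of complex I. Of 38 tested subunits of complexes II to V 0 were called, with a median log2 fold change of 0.02 a range from -0.31 to 0.70 and 1 gene at an unadjusted limma p under 0.05. Atp5o, a stalk subunit of ATP synthase, had the largest statistic at 24.6 and 21.3 against 31.3 and 28.5 scaled units (0.37 ± 0.17 SE, limma adjusted p = 0.429). For Cox7c, a small complex IV subunit, the values were 1.40 and 3.20 against 3.76 and 4.57 scaled units (limma adjusted p = 0.527). Among 78 mitochondrial ribosomal proteins 0 were called, 2 had an unadjusted limma p under 0.05 and the median was 0.02. Mrpl33 and Mrpl36 had the largest statistics, at changes of 0.58 and 0.48 (limma adjusted p = 0.352 and 0.366). No difference between complex I and these lists was tested.

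**Figure D4:**
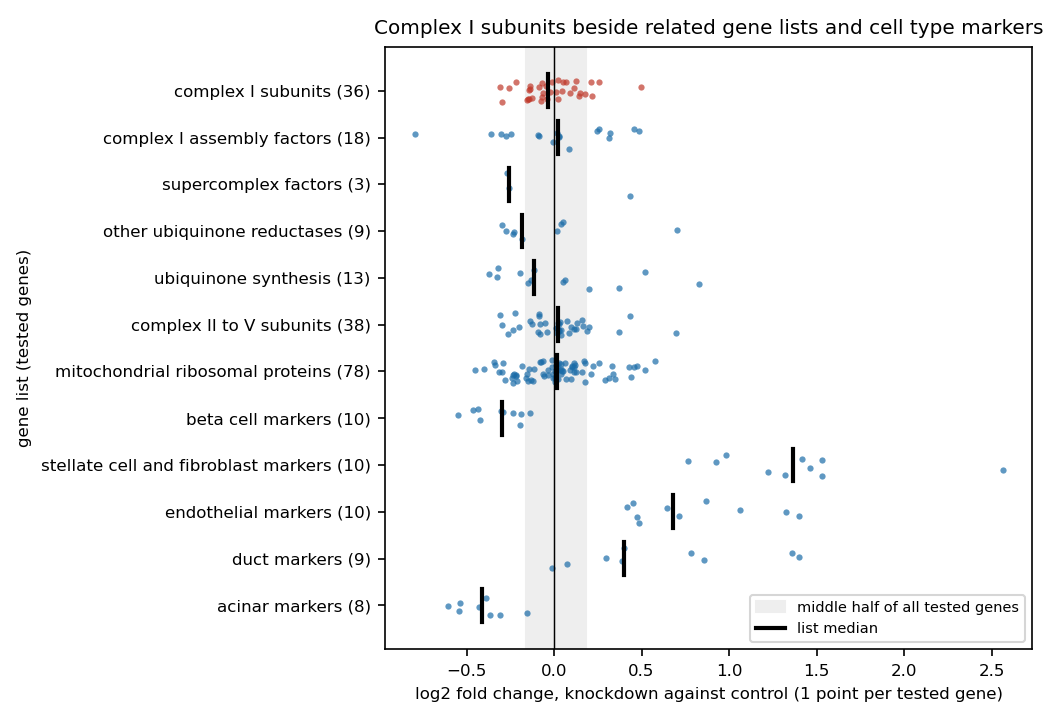
Log2 fold change of each tested gene in the complex I list (red), in related mitochondrial lists and in cell type marker lists (blue), with the list median as a black bar and the interquartile range of all tested genes as a grey band. The complex I median of -0.03 lies in the band, the stellate and endothelial medians of 1.37 and 0.68 to the right of it, with the duct median of 0.40, and the beta cell and acinar medians of -0.30 and -0.41 to the left, with those of supercomplex factors (-0.26) and other ubiquinone reductases (-0.19).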

How the data were processed

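RNA of 4 islet libraries was sequenced after ribosomal RNA removal and directional, randomly primed library construction. The build was mm10, and the tools listed are STAR 2.5.1b, HOMER 4.9 and edgeR, with no role given, per the submitters' processing notes. The authors deposited a signal, reads per 10000000 library reads, with no scaling by gene length, although the table is named for FPKM. In every library 100% of the low values checked were whole multiples of 1 read within 0.1 reads, which gave the library totals and whole reads. The table's length equals the genomic span for 99.5% of rows, and of 123 rows nested in a row on the other strand (at least 30 reads) 99.2% held no more reads than the outer row, so that introns and both strands may have been counted. Rn45s, the ribosomal precursor, took 41.6% to 42.6% of reads, and reads outside the 15 rows above 25000 units numbered 3756898 to 4335082.

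The test took genes whose mean reached 1 unit and whose length reached 200 nt. It was run with limma 3.58.1 (R 4.3.3) on log2(value + 1) after median-ratio scaling, with a mean-variance trend, two-sided, and Benjamini-Hochberg adjustment over 13531 genes at 0.05. The prior degrees of freedom were 21.4. The edgeR 4.0.16 quasi-likelihood test (TMM) and DESeq2 1.42.0 were run on recovered reads. The tests were checked on simulated data in which the changed genes differed by 2-fold or more. That check says nothing about changes as small as those of the members. Scaling was chosen because the median log2 fold change was 0.17 on the deposited scale. Each library is its own pool of mice. The limma SEs, intervals and p-values use a spread between pools drawn largely from other genes of similar level, not from the gene alone. The members and lists were chosen with earlier results of these data known. By the rule for named genes, values are given for the core subunits, the 4 highest and the 4 lowest changes, the highest and lowest mean level in each role, Ndufab1 and Ndufa4, and the 2 largest statistics of other lists. Ndufs4, Ndufs6, Ndufa10, Ndufc1 and Ndufb9 fall outside this rule and were chosen after their values were seen. Transcript lengths and shared 50-base stretches came from GENCODE M21.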

Additional observations from a re-analysis of the deposited data

How the results depend on the processing

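Under every setting tried 0 of 36 members were called in either direction: values as deposited, scaling by reads outside the top rows, pseudocounts of 0.5 and 5, no filter on low values, no mean-variance trend, edgeR, DESeq2, and each library left out. The members' median stayed between -0.06 (without knockdown replicate 3) and -0.01 (without knockdown replicate 4) relative to all tested genes. In the same terms 4 core subunits turned in sign when 1 library was left out, none of them called. Ndufv2 ranged from -0.04 to 0.15 (-0.0361 without control replicate 1), and Ndufs1 from -0.20 to 0.07 and Ndufs7 from -0.11 to 0.24 (0.0671 and -0.106 without knockdown replicate 3). Ndufs8 ranged from -0.52 to 0.22, 0.220 without knockdown replicate 4. Over the same fits Ndufb2 ranged from 0.38 to 0.63, Ndufa11 from 0.11 to 0.41, Ndufa13 from 0.15 to 0.30, Ndufv1 from -0.41 to -0.11, Ndufb7 from -0.40 to -0.19, Ndufb5 from -0.39 to -0.22 and Ndufa6 from -0.29 to -0.14. Each of these fits leaves 1 library in a group, assumed to vary like the other group, so that its lack of calls says little. The smallest adjusted p of any member was 0.184, for Ndufb2 on the deposited values. Calls over all genes moved far more, from 151 higher and 21 lower (87.8% higher) to 337 and 6 on the deposited values (98.3%), 113 and 67 with no filter (62.8%), 83 and 11 by DESeq2, 45 and 48 without knockdown replicate 3 and 339 and 68 without knockdown replicate 4. Without control replicate 2 there were 34 and 4, and without control replicate 1 or without the trend 0, so that the lack of member calls without the trend says little too. No paired analysis was possible because the groups share no replicate number. With 2 libraries a group and 14 to 378 reads per member, the 95% intervals of the members reached from -0.71 to 0.93.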

Other observations

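Other enzymes that feed electrons to ubiquinone, and the genes that make it, gave no calls by limma or edgeR, with 9 and 13 tested genes, of which 2 and 1 had an unadjusted limma p under 0.05. The other ubiquinone reductases had a median log2 fold change of -0.19. Gpd2, the mitochondrial glycerol phosphate dehydrogenase, stood at 122 and 109 scaled units in control islets, against 92.3 and 98.1 in knockdown islets (-0.27 ± 0.12 SE, limma adjusted p = 0.418). Chdh, choline dehydrogenase, stood at 3.78 and 2.33 against 7.28 and 4.09 scaled units (limma adjusted p = 0.467). In ubiquinone synthesis the median was -0.11. Coq7, the hydroxylase of the pathway, stood at 3.64 and 3.78 against 7.52 and 7.22 scaled units, with no overlap (0.83 ± 0.28 SE, limma adjusted p = 0.222). Coq2, which joins the ring to its side chain, stood at 27.4 and 37.6 against 23.8 and 27.2 scaled units (limma adjusted p = 0.556).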
